A study of Homo sapiens with 9 samples.

Results

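The 9 genes described here encode the enzymes that make serine from a glycolytic intermediate and pass its carbon through folate, and they were taken by symbol from the 60617 genes counted in each library. PHGDH, PSAT1 and PSPH make serine, SHMT1 and MTHFD1 act on folate in the cytosol, and SHMT2, MTHFD2, MTHFD1L and ALDH1L2 act on folate in mitochondria. All 9 passed the filter on low counts. They were measured by RNA-seq in PC-3, an established human prostate cancer cell line, in 3 control libraries (Ctrl), 3 libraries of cells treated with the DNA-demethylating agent decitabine (Dec) and 3 of cells given decitabine and S-adenosylmethionine, SAM, together (Dec_Sam). The labels give 5 days of treatment, and the doses of the study's methods were 1 µM of decitabine and 200 µM of SAM, with a vehicle of sulfuric acid and ethanol in PBS for the controls. Libraries of SAM given without decitabine are not analysed here. The comparisons ask what decitabine changed in these genes and whether SAM given with it changed them further. PC-3 is a single line, and nothing in the labels says that the replicates came from separate cultures, so p-values measure only the spread between these libraries.

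Serine is made in 3 steps. PHGDH oxidizes 3-phosphoglycerate, PSAT1 transfers an amino group to the product, and PSPH removes the phosphate. The serine hydroxymethyltransferases then split serine into glycine and a one-carbon unit bound to tetrahydrofolate, SHMT1 in the cytosol and SHMT2 in mitochondria. In mitochondria MTHFD2 oxidizes the unit to 10-formyl-tetrahydrofolate, and MTHFD1L releases it as formate. MTHFD1 takes up formate in the cytosol for the synthesis of purines, thymidylate and methyl groups, the last of which feed the methionine cycle that makes SAM. ALDH1L2 instead burns the formyl group to carbon dioxide inside mitochondria and yields NADPH. Several of these genes, PHGDH, PSAT1, SHMT2 and MTHFD2 among them, are known targets of the transcription factor ATF4.

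Decitabine acts on methylation at CpG sites, so promoter windows of members that moved are shown with each CpG in capitals. Each holds the 250 bases upstream of a RefSeq transcription start on GRCh38.p14. PHGDH and PSAT1, the serine synthesis genes with the larger decreases, are on the plus strand at chr1:119711684-119711933 and chr9:78296875-78297124.
PHGDH: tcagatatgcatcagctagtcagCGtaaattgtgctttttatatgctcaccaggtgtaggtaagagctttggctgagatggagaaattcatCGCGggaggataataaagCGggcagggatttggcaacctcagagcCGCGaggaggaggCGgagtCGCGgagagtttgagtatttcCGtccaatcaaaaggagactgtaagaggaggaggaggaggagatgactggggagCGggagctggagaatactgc
PSAT1: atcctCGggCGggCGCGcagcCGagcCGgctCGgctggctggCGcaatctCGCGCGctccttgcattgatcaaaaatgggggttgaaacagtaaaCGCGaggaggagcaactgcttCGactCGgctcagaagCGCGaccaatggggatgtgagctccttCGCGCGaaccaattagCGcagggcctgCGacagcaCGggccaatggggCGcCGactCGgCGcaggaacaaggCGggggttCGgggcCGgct
The PHGDH window had 11 CpG sites, which was the median of all 34943 promoter windows (quartiles 3 and 23), and the PSAT1 window had 30. SHMT1 had 19 CpG sites in its window, MTHFD1 18 and MTHFD2 21. PSPH, SHMT2 and ALDH1L2 had no entry. The core of the C/EBP-ATF response element, TGATGNAA on either strand, was present in 3.15% of all windows. Among the members it was found in 2 of the 4 windows of MTHFD1L, which overlap and share 1 match. It is in capitals in the window at chr6:150866236-150866485, plus strand.
MTHFD1L: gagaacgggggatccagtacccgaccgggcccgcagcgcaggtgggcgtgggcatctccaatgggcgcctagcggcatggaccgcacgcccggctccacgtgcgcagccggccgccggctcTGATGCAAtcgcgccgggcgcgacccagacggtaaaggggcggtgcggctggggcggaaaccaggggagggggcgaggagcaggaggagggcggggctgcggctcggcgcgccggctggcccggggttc
On the plus strand, 121 bases lie between this match and the start. The 3 windows of MTHFD1L near the beginning of the gene had 31, 32 and 33 CpG sites. Methylation was not measured in these libraries, and a match of letters is not a bound site.

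Libraries held between 21934307 and 22489684 estimated counts, and 18532 genes were tested. Levels are given as CPM, the counts of a gene relative to those of its library, scaled with TMM, whose factors were 0.8948 to 0.9021 in the controls and 1.033 to 1.078 in treated cells. Without TMM, scaling to the library totals raised the median over all genes tested by 0.25 (log2) for decitabine and by 0.22 for the combination. Of the epithelial markers, KRT8 (107.0 to 127.2 CPM) and KRT18 (396 to 445 CPM) were high in the controls, EPCAM was at 15.8 to 18.2 CPM and CDH1 at 1.78 to 2.0 CPM. KLK3, which encodes the prostate-specific antigen and is known to be lacking in PC-3, had no count in any library. With decitabine and the combination, CDH1 rose by 2.94 and 3.17 on the log2 scale and KRT8 by 1.14 and 0.80. KRT18 changed by -0.25 and -0.43, and EPCAM did not pass an adjusted p of 0.05. Of 5 markers of other cell types, COL1A1, DCN, PTPRC and PECAM1 rose with both treatments and PDGFRB stayed at or under 0.596 CPM. Of all genes tested, 36.3% rose with decitabine and 35.9% with the combination. COL1A1 was at 2.48 to 3.8 CPM in control cells and at 36.0 to 68.5 CPM in treated cells. In bulk RNA, a change in the cells present and a change in RNA per cell cannot be told apart, and the part of these markers in the results was not tested.

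With decitabine, 8 of the 9 enzymes fell and ALDH1L2 rose, and the combination gave the same split. In edgeR's quasi-likelihood test at an adjusted p under 0.05, 32.5% of all genes tested fell and 36.3% rose with decitabine, and 31.3% fell and 35.9% rose with the combination. Scaled to library totals, decitabine raised 8849 genes and lowered 3746, against 6729 and 6030 with TMM, and the combination raised 8695 and lowered 3857, against 6647 and 5799. The members' split did not change with that scaling. The 3 control libraries did not overlap with the treated libraries for any member under either treatment, which also held for 72.9% and 71.6% of all genes. The 9 members had medians of -1.27 (decitabine) and -1.31 (combination) on the log2 scale, against 0.03 and 0.05 over all genes tested. Both comparisons use the same controls. The CPM of the 9 enzymes summed to 2120 ± 244 (SD, n = 3) in control libraries. After decitabine the sum was 757 ± 36.5, or 35.7% of the control level, and after the combination 737 ± 31.9, or 34.8%.

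**Figure D1:**
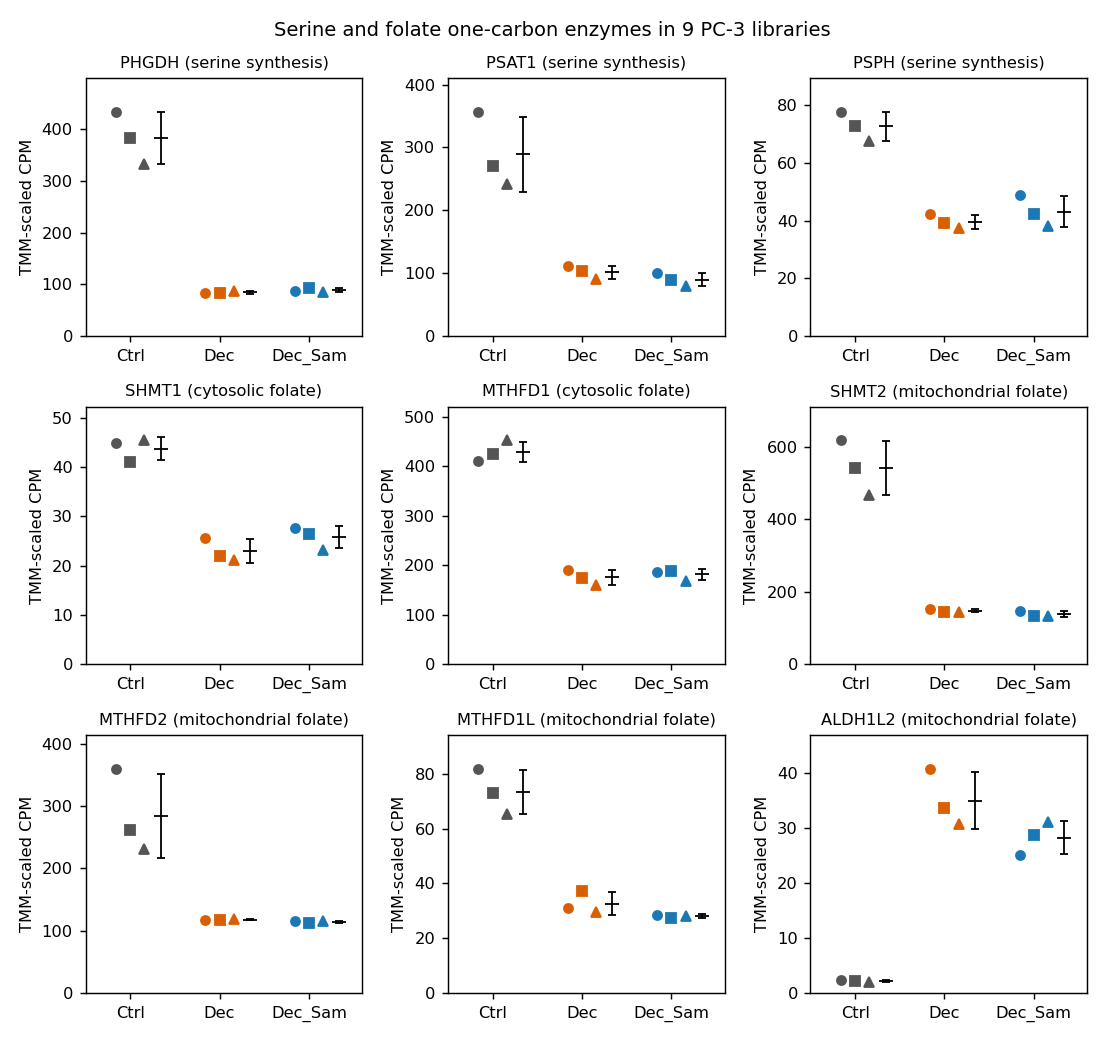
TMM-scaled CPM of each enzyme (linear vertical axes from 0) in the 9 libraries of Ctrl, Dec and Dec_Sam, with circles, squares and triangles for replicates 1, 2 and 3 and bars for the mean and SD of 3. Treated libraries sit under all controls in 8 panels and above them for ALDH1L2, and control replicate 1 is the highest control in 7 panels.

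Of the serine synthesis enzymes, PHGDH (ENSG00000092621; chromosome 1, 119648411 to 119744218, plus strand) changed most. Its 3 control libraries had 433, 383 and 333 CPM. With decitabine they were 83.0, 82.5 and 88.0 CPM, and with the combination 86.5, 93.1 and 85.4 CPM. The treated libraries thus lay close together, far under a wider range of controls. PHGDH was 4.53-fold lower with decitabine (log2 -2.18, SE 0.09, adjusted p = 1.5e-10) and 4.34-fold lower with the combination (log2 -2.12, SE 0.09, adjusted p = 2e-10). Only 71 of the genes tested had a lower log2 fold change with decitabine.

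PSAT1 (ENSG00000135069; chromosome 9, 78297125 to 78330093, plus strand), the aminotransferase of the second step, had 356, 271 and 241 CPM in the controls. It had 111, 103 and 90.1 CPM with decitabine and 99.6, 88.9 and 79.0 CPM with the combination. The treated groups overlapped with each other and not with the controls, although the controls spread 1.48-fold. PSAT1 was 2.86-fold lower with decitabine (log2 -1.51, SE 0.14, adjusted p = 3.6e-06) and 3.25-fold lower with the combination (log2 -1.70, SE 0.14, adjusted p = 1.6e-06).

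PSPH (ENSG00000146733; chromosome 7, 56011051 to 56051604, minus strand), the phosphatase of the last step, had 77.7, 72.7 and 67.8 CPM in the controls. It had 42.3, 39.1 and 37.3 CPM with decitabine and 48.8, 42.4 and 38.2 CPM with the combination. The decrease was the smallest of the 3, 1.84-fold with decitabine (log2 -0.88, SE 0.09, adjusted p = 1.4e-06) and 1.69-fold with the combination (log2 -0.75, SE 0.09, adjusted p = 6.3e-06). Its pseudogene PSPHP1, with which it may share reads, had mean levels of 2.80, 2.13 and 2.78 CPM in control, decitabine and combination. Together the 3 genes had 745 ± 114 CPM in control libraries. Decitabine left 225 ± 10.4 CPM, which is 30.3% of that level, and the combination 221 ± 16.5, or 29.6%.

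Both cytosolic folate enzymes fell. MTHFD1 (ENSG00000100714; chromosome 14, 64388031 to 64463457, plus strand), the trifunctional enzyme that activates formate, had 412, 424 and 452 CPM in the controls. It had 191, 175 and 161 CPM with decitabine and 187, 189 and 169 CPM with the combination. Here control replicate 3 was the highest, and all treated libraries were far under the lowest control. MTHFD1 was 2.44-fold lower with decitabine (log2 -1.29, SE 0.08, adjusted p = 6.9e-09) and 2.36-fold lower with the combination (log2 -1.24, SE 0.08, adjusted p = 9.8e-09). ZBTB25, which overlaps MTHFD1 on the other strand, had a log2 fold change of 0.16 (adjusted p = 0.13) with decitabine.

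SHMT1 (ENSG00000176974; chromosome 17, 18327860 to 18363563, minus strand), the cytosolic serine hydroxymethyltransferase, had 44.8, 41.1 and 45.4 CPM in the controls. It had 25.7, 21.9 and 21.2 CPM with decitabine and 27.6, 26.4 and 23.3 CPM with the combination. It was 1.91-fold lower with decitabine (log2 -0.93, SE 0.10, adjusted p = 9.1e-07) and 1.70-fold lower with the combination (log2 -0.76, SE 0.09, adjusted p = 6.4e-06). SHMT1 and PSPH had the smallest decreases of the 8, and both miss a threshold of 1 on the log2 scale. SMCR8, which overlaps the end of SHMT1 on the other strand, rose with decitabine (log2 0.53, adjusted p = 0.0062).

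Of the mitochondrial enzymes, SHMT2 (ENSG00000182199; chromosome 12, 57229573 to 57234935, plus strand) fell most. The controls had 618, 541 and 467 CPM. With decitabine SHMT2 had 153, 146 and 145 CPM, and with the combination 147, 134 and 133 CPM. As for PHGDH, treated libraries differed little among themselves while the controls spread 1.32-fold. SHMT2 was 3.66-fold lower with decitabine (log2 -1.87, SE 0.09, adjusted p = 8.3e-10) and 3.92-fold lower with the combination (log2 -1.97, SE 0.09, adjusted p = 5.6e-10).

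MTHFD2 (ENSG00000065911; chromosome 2, 74186172 to 74217565, plus strand), the mitochondrial dehydrogenase and cyclohydrolase, had 359, 262 and 231 CPM in the controls. It had 117.1, 116.8 and 119.2 CPM with decitabine and 115.0, 112.6 and 115.5 CPM with the combination. The SD was 66.9 CPM in the controls and 1.31 and 1.56 CPM in the treated groups, so that nearly all the spread was among the controls. MTHFD2 was 2.41-fold lower with decitabine (log2 -1.27, SE 0.13, adjusted p = 2.8e-06) and 2.48-fold lower with the combination (log2 -1.31, SE 0.13, adjusted p = 2.2e-06).

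MTHFD1L (ENSG00000120254; chromosome 6, 150865679 to 151101887, plus strand), the mitochondrial formate-releasing enzyme, had 81.8, 72.9 and 65.5 CPM in the controls. It had 30.9, 37.4 and 29.4 CPM with decitabine and 28.6, 27.2 and 28.1 CPM with the combination. All 3 libraries of the combination were under those of decitabine alone. MTHFD1L was 2.25-fold lower with decitabine (log2 -1.17, SE 0.10, adjusted p = 1.6e-07) and 2.62-fold lower with the combination (log2 -1.39, SE 0.10, adjusted p = 3.5e-08).

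ALDH1L2 (ENSG00000136010; chromosome 12, 105019784 to 105107643, minus strand), the mitochondrial 10-formyl-tetrahydrofolate dehydrogenase, moved against the other 8. It had 48, 44 and 40 counts in the controls, 965, 797 and 725 with decitabine and 577, 653 and 730 with the combination. In CPM these were 2.38, 2.20 and 1.97, then 40.8, 33.6 and 30.7, then 25.1, 28.7 and 31.1. The lowest treated library was far above the highest control. ALDH1L2 was 16.0-fold higher with decitabine (log2 4.0, SE 0.15, adjusted p = 4.5e-11) and 12.9-fold higher with the combination (log2 3.69, SE 0.15, adjusted p = 1e-10). Of the 18532 genes tested, 1185 had a higher log2 fold change with decitabine and 1210 with the combination. ALDH1L2 overlaps WASHC4 and NOPCHAP1 on the other strand, and whether counting used the strand is not given in the sources used here. WASHC4 had mean levels of 73.0, 90.3 and 79.3 CPM in control, decitabine and combination, and its log2 fold change with decitabine was 0.31 (adjusted p = 0.0033). NOPCHAP1 fell with decitabine by 0.38 on the log2 scale (adjusted p = 0.001).

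**Figure D2:**
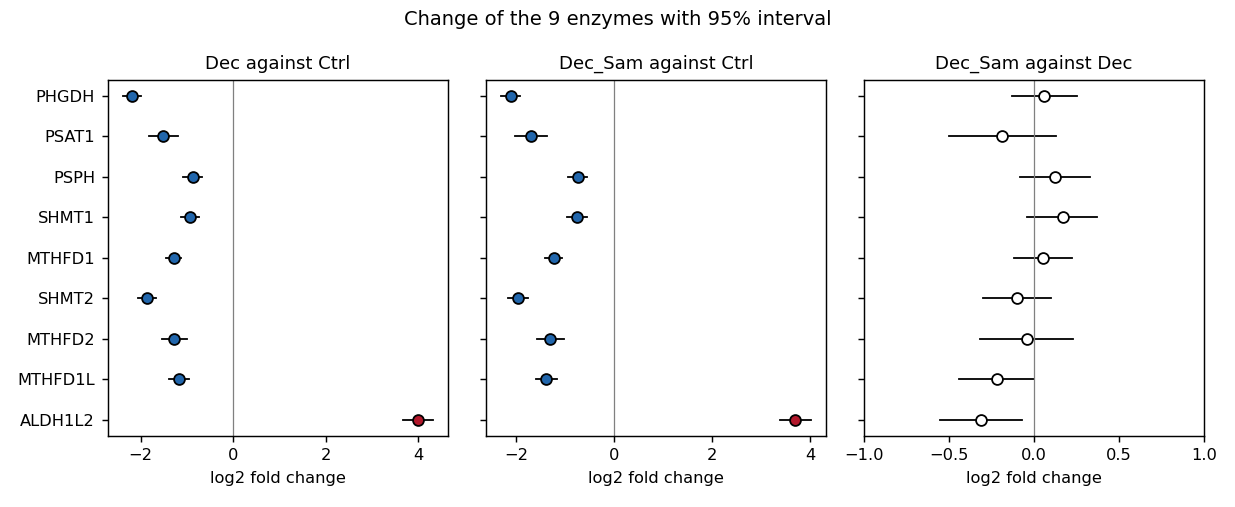
Log2 fold changes (horizontal axes, with 95% intervals) of the 9 enzymes for Dec against Ctrl, Dec_Sam against Ctrl and, on a narrower axis, Dec_Sam against Dec. Filled points passed an adjusted p of 0.05, which 8 decreases and the increase of ALDH1L2 did in the first 2 panels and no enzyme did in the third.

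Between the combination and decitabine alone, none of the 9 enzymes passed the test, where 7.67% of all genes rose and 8.02% fell. At an unadjusted p under 0.05 there was 1 member, ALDH1L2, and neither DESeq2 nor voom with limma called any. PHGDH differed by 0.06 on the log2 scale (95% interval -0.13 to 0.25), MTHFD1 by 0.05 (-0.12 to 0.22) and SHMT2 by -0.10 (-0.30 to 0.10). The widest bound among these 3 genes was thus -0.30. For PSPH the difference was 0.12 (-0.08 to 0.33) and for SHMT1 0.17 (-0.04 to 0.37). PSAT1, whose replicates spread more, differed by -0.19 (-0.50 to 0.13).
The 2 members whose treated groups did not overlap were MTHFD2 and MTHFD1L, which compares with 34.0% of all genes. MTHFD2 differed by -0.04 (-0.32 to 0.23, adjusted p = 0.85). MTHFD1L differed by -0.22 (-0.44 to 0.00, adjusted p = 0.16). ALDH1L2 had the largest difference among the 9, -0.31 (-0.55 to -0.07, adjusted p = 0.076), with overlapping groups. It passed the threshold without decitabine replicate 3 (log2 -0.39, adjusted p = 0.031), without combination replicate 3 (log2 -0.38, adjusted p = 0.037) and with no filter on low counts (log2 -0.30, adjusted p = 0.042). Over all its alternatives the adjusted p ran from 0.031 to 0.30.

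Ratios between members within a library do not depend on scaling between libraries. For SHMT2 to SHMT1, the same reaction in mitochondria and cytosol, the log2 ratio relative to the control mean was 0.16, 0.09 and -0.26 in the controls. It was -1.05, -0.89 and -0.85 with decitabine and -1.21, -1.28 and -1.11 with the combination. The ratio was thus 1.91-fold lower with decitabine and 2.30-fold lower with the combination, with no overlap between any of the groups. The step between the treatments was -0.27.
For MTHFD1L to MTHFD1, whose formate-tetrahydrofolate ligase activity is shared, the values were 0.22, 0.01 and -0.24 in the controls, -0.07, 0.32 and 0.10 with decitabine and -0.16, -0.24 and -0.04 with the combination. Both treated groups overlapped with the controls, and their means of 0.12 and -0.15 were within the control SD of 0.23. For ALDH1L2 to SHMT2 the ratio was 58.1-fold higher with decitabine (log2 5.86) and 50.5-fold higher with the combination (log2 5.66), with control libraries between -0.07 and 0.06. The pair of ALDH1L2 and SHMT2 was chosen because ALDH1L2 had risen in earlier results of these data, so its direction was known beforehand. These ratios are descriptions, without a test.

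**Figure D3:**
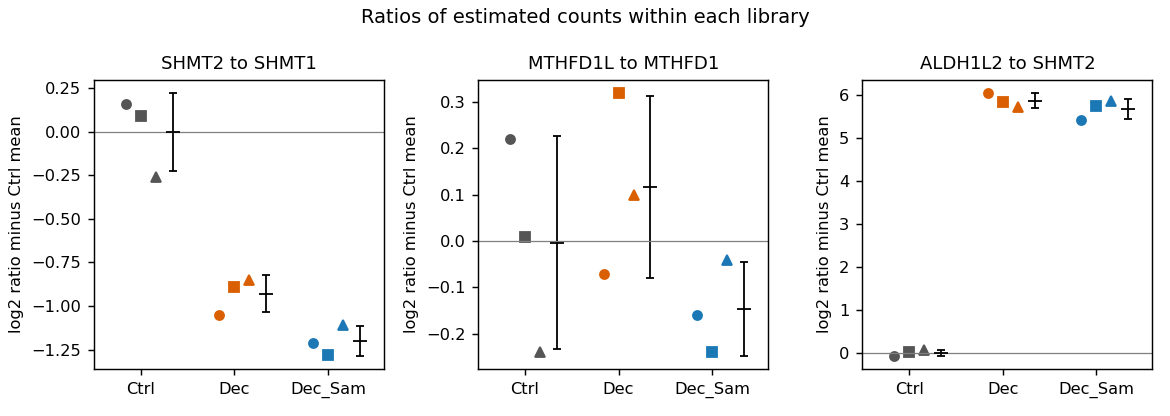
Log2 ratios of estimated counts within each library minus the control mean (vertical axes, each panel with its own range) for 3 pairs of enzymes, with replicates as circles, squares and triangles and bars for the mean and SD of 3. SHMT2 to SHMT1 drops to means of -0.93 in Dec and -1.20 in Dec_Sam, MTHFD1L to MTHFD1 overlaps with the controls, and ALDH1L2 to SHMT2 rises to 5.86 and 5.66.

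By compartment, the 2 cytosolic enzymes together went to 42.0% of the control CPM with decitabine and 43.9% with the combination. The 4 mitochondrial enzymes went to 37.0% and 34.3%, a sum that includes the rise of ALDH1L2 from a mean of 2.19 CPM to 35.0 and 28.3 CPM. Such sums of CPM are not corrected for gene length. Levels of single genes were compared with each other only as CPM per kilobase of transcript. With the union of annotated exons, PSAT1 (131 ± 27.1, SD, n = 3) and SHMT2 (118 ± 16.4) were the highest in the controls and their libraries overlapped. ALDH1L2 was the lowest at 0.230 ± 0.0216. PHGDH followed at 41.7 ± 5.46, and PSPH, MTHFD2 and MTHFD1, at 26.3 ± 1.79, 24.8 ± 5.85 and 24.7 ± 1.2, overlapped with each other. MTHFD1L was at 15.0 ± 1.68 and SHMT1 at 6.24 ± 0.328.
The order depends on the length used. With the MANE Select transcript, a choice made after the data were seen because exon unions hold retained introns, SHMT2 came first (251 ± 34.9) and PHGDH second (205 ± 26.9). SHMT2 was first or second and ALDH1L2 last in the controls with each of 3 lengths. With the MANE Select lengths, ALDH1L2 made up 0.0878% ± 0.00535 of the summed level of the 4 mitochondrial enzymes in the controls. This share was 4.30% ± 0.538 with decitabine and 3.75% ± 0.508 with the combination, so ALDH1L2 remained a small part of that sum.

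Members can be ordered by how near their profiles are over the 9 libraries, as the root mean square difference in centred log2 CPM. PSPH and SHMT1 were each other's nearest member at 0.08, PHGDH and SHMT2 at 0.14, and MTHFD2 and MTHFD1L at 0.14. Among all genes tested, 2 were nearer to PHGDH than SHMT2 was, and 9 nearer to SHMT2 than PHGDH was. For PSPH and SHMT1 these numbers were 79 and 53, and for MTHFD2 and MTHFD1L 28 and 74, so many other genes had profiles as near. The 2 nearer to PHGDH were ANXA10 and DYNLT2B, and LINC02970 and ENSG00000261327 came next after SHMT2. Nearest to PSAT1 were MSRA, CEP70, SLC37A4, URM1 and STEAP3, between 0.08 and 0.11. Among the genes nearest to SHMT2 were LINC02970, NPM3, MGMT and ANXA10, between 0.10 and 0.12. Nearest to ALDH1L2 were LBX2-AS1, ZNF571-AS1, GUCA1A, DOCK2 and ENSG00000215869, all at a mean of at most 0.332 CPM in the controls, while its nearest member, PSPH, was at 2.19. Likeness here is a description over libraries of 3 conditions.

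Of 43 other genes of serine and folate metabolism, listed by function, 39 were tested. FOLR1, FOLR2, ALDH1L1 and SDS did not pass the filter. With decitabine 30 of the 39 fell and 6 rose, and their median was -0.51 on the log2 scale. Of all genes tested, 32.5% fell and 36.3% rose, with a median of 0.03. Scaled to library totals, 20 of the 39 fell and 8 rose. With the combination 26 of the 39 fell and 7 rose, and the median was -0.63. Over all genes the values were 31.3%, 35.9% and 0.05. Between the treatments 7 of the 39 were higher and 5 lower in the combination, with a median of 0.01. The shares over all genes were 7.67% and 8.02%. In the plot of these genes the decreases were spread over transport, folate reduction, purine synthesis and other uses of serine.

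**Figure D4:**
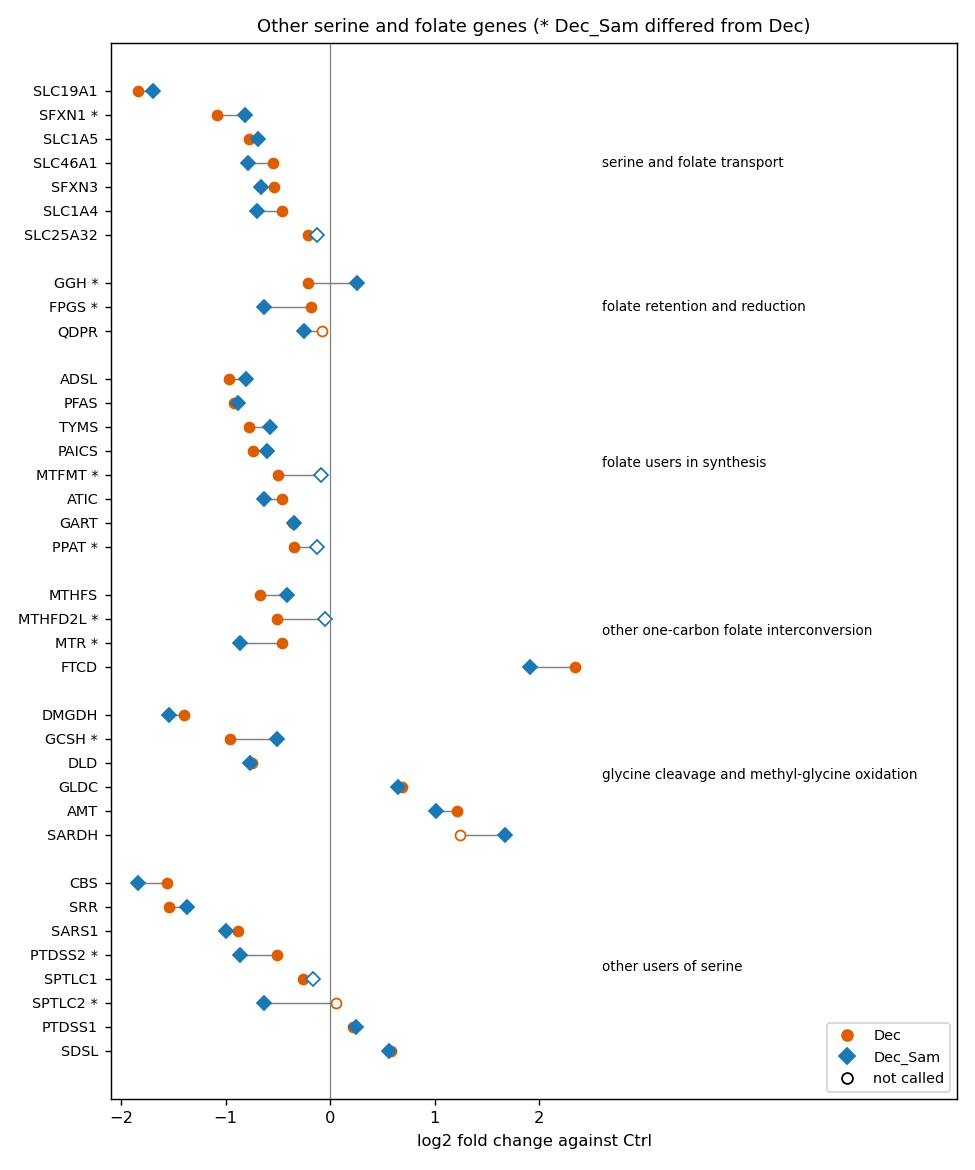
Log2 fold change against Ctrl (horizontal axis) of tested pathway genes, in 6 lists, with circles for Dec, diamonds for Dec_Sam and open symbols where the adjusted p did not pass 0.05. Names with an asterisk are genes that differed between Dec_Sam and Dec, such as SPTLC2 at -0.63 in Dec_Sam and 0.05 in Dec.

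Of 7 tested transporters, 7 fell with decitabine and 6 with the combination, against 32.5% and 31.3% of all genes tested. With library size alone 3 of the 7 were lost with decitabine, as SLC25A32 was at 0.04 on the log2 scale, SLC1A4 at -0.22 (adjusted p = 0.15) and SLC46A1 at -0.30 (adjusted p = 0.056). SLC25A32 was also lost without control replicate 1 (adjusted p = 0.092) or decitabine replicate 2 (adjusted p = 0.065). SLC19A1, the reduced folate carrier, fell by 1.84 on the log2 scale with decitabine and by 1.70 with the combination (adjusted p = 1.3e-09 and 2.9e-09). COL18A1, which overlaps SLC19A1 on the other strand, fell by 1.0 with decitabine. SLC46A1, the proton-coupled folate transporter, fell by 0.55 and 0.79. SFXN1, the carrier of serine into mitochondria, fell by 1.08 and 0.82, and was higher with the combination than with decitabine (log2 0.27, adjusted p = 0.044).

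Against the controls, 32.5% of all genes tested fell and 36.3% rose with decitabine, and 31.3% and 35.9% with the combination. Between the treatments 7.67% were higher and 8.02% lower in the combination. In the list of folate retention and reduction, 2 of 6 genes were higher and 2 lower in the combination than with decitabine. Against the controls 4 of the 6 fell and 1 rose with each treatment, but these were not the same genes. GGH fell with decitabine (log2 -0.21) and rose with the combination (log2 0.26, adjusted p = 0.0079), the latter under 16 of 17 alternatives. QDPR, one of those that fell with the combination, was at -0.03 on the log2 scale with library size alone (adjusted p = 0.74).
FPGS and GGH act in opposite directions on the polyglutamate tail that keeps folate in cells. FPGS, which adds it, had 113, 113 and 99.8 CPM in the controls, 91.6, 99.9 and 97.5 with decitabine and 70.5, 66.5 and 74.6 with the combination. GGH, which removes it, had 69.6, 62.4 and 59.0 CPM in the controls, 52.1, 57.7 and 55.3 with decitabine and 78.2, 76.0 and 74.2 with the combination. With the combination FPGS was below and GGH above every other library. Relative to decitabine FPGS was lower (log2 -0.45, adjusted p = 0.0023) and GGH higher (log2 0.47, adjusted p = 0.0021). Their small decreases with decitabine alone, of 0.18 (adjusted p = 0.048) and 0.21 (adjusted p = 0.025), turned to 0.07 and 0.04 with library size alone. The FPGS decrease passed under only 4 of 17 alternatives and was lost with DESeq2 (adjusted p = 0.084), with voom and limma (0.051), with the replicate block (0.056) and without any 1 of 6 libraries (0.051 to 0.14). The GGH decrease passed under 13 of 17 and was lost with library size alone, with only the 6 libraries compared, and without control replicate 1 (adjusted p = 0.11) or decitabine replicate 1.

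**Figure D5:**
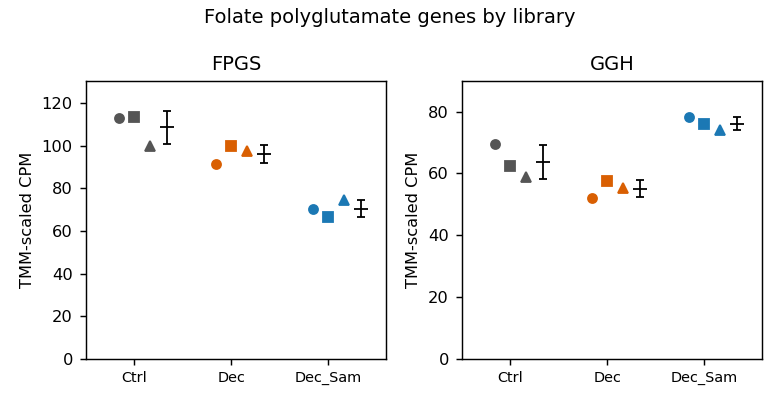
TMM-scaled CPM (vertical axes from 0) of FPGS and GGH in the 9 libraries, with replicates as circles, squares and triangles and bars for the mean and SD of 3. The Dec_Sam libraries sit below all others for FPGS and above all others for GGH.

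Of 8 genes that use folate in nucleotide or formyl-methionine synthesis, or act beside them in purine synthesis, 8 fell with decitabine and 6 with the combination. The shares over all genes tested were 32.5% and 31.3%. With library size alone GART and PPAT were both at -0.11 on the log2 scale with decitabine (adjusted p = 0.16 and 0.21) and GART at -0.13 with the combination (adjusted p = 0.12). Of the purine enzymes, PFAS fell by 0.92 and 0.88, ADSL by 0.97 and 0.81 and ATIC by 0.46 and 0.63. PPAT, the first enzyme of that pathway, and MTFMT, which formylates the mitochondrial initiator tRNA, were higher with the combination than with decitabine, by 0.22 (adjusted p = 0.048) and 0.41 (adjusted p = 0.009).
Of 4 other folate-interconverting genes, MTHFD2L, a relative of MTHFD2, was higher with the combination than with decitabine (log2 0.46, adjusted p = 0.018). MTR, the methionine synthase, was lower (log2 -0.40, adjusted p = 0.015) and fell by 0.46 and 0.86 against the controls, the former being at -0.22 with library size alone (adjusted p = 0.055). MTHFS, which returns stored formyl-folate to use, fell by 0.67 with decitabine. With the combination its log2 fold change was -0.41, its CPM of 8.26 to 11.8 overlapped the controls at 11.3 to 14.7, and the call held under 12 of 17 alternatives. It was lost with library size alone (adjusted p = 0.25) and without control replicate 1 or 2 or combination replicate 2 or 3 (adjusted p = 0.051 to 0.099). FTCD, an enzyme of histidine breakdown, rose at a low level, from a mean of 0.879 CPM to 4.47 and 3.31 CPM.
Of 6 genes of glycine cleavage and methyl-glycine oxidation, GCSH, the carrier protein of the cleavage system, fell by 0.96 and 0.51 and was higher with the combination than with decitabine (log2 0.45, adjusted p = 0.0072). AMT, its aminomethyltransferase, rose by 1.21 and 1.01 and DMGDH, the dimethylglycine dehydrogenase, fell by 1.40 and 1.54, with control means of 0.696 and 1.61 CPM. AMT had 10 to 46 counts, and its increase with the combination was lost without control replicate 1 (log2 0.81, adjusted p = 0.061) or combination replicate 1 (log2 0.76, adjusted p = 0.072). SARDH, the sarcosine dehydrogenase, had log2 fold changes of 1.24 (adjusted p = 0.062) and 1.67 (adjusted p = 0.012) on 3 to 23 counts, and without combination replicate 1 the latter was 1.06 (adjusted p = 0.10).
Of 8 tested genes that otherwise use serine, CBS, which joins it to homocysteine, fell by 1.56 and 1.84. SRR, the serine racemase, fell by 1.54 and 1.37, and SARS1, the seryl-tRNA synthetase, by 0.88 and 1.0. SPTLC2, a subunit of the enzyme that starts sphingolipid synthesis, and PTDSS2, a phosphatidylserine synthase, were lower with the combination than with decitabine, with log2 differences of -0.68 (adjusted p = 0.00093) and -0.35 (adjusted p = 0.0074).

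Most of the listed ATF4-response and proliferation genes fell against the controls, as 8 of the 9 members did. Of 8 genes of the ATF4 amino acid response outside the members, 7 fell with both treatments. Of all genes tested, 32.5% fell with decitabine and 31.3% with the combination. ATF4 had 519, 444 and 392 CPM in the controls, 208, 209 and 216 with decitabine and 168, 161 and 176 with the combination. It was 2.14-fold lower with decitabine (log2 -1.10, adjusted p = 1.1e-07) and lower with the combination than with decitabine (log2 -0.33, adjusted p = 0.027). ASNS, the asparagine synthetase, fell by 2.05 with decitabine and TRIB3 by 2.24. CEBPB had a log2 fold change of -0.56 (adjusted p = 0.11). ALDH1L2 rose, while 7 of the 8 genes of this list fell.
Of 8 proliferation genes, 8 fell with decitabine (median -0.88 on the log2 scale) and 7 with the combination (median -0.55). The shares over all genes tested were 32.5% and 31.3%. Relative to decitabine, 2 of the 8 proliferation genes, CCNB1 and CDK1, were higher with the combination, against 7.67% of all genes. The part of either list in the changes of the 9 enzymes was not tested.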

How the data were processed

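RNA-seq of 9 PC-3 libraries was analysed, with groups and replicate numbers taken from the sample labels. The authors trimmed reads and counted them with kallisto against GRCh38.p13, per the submitters' processing notes, and deposited the estimated counts of each Ensembl gene, not normalized. The annotation release and the strand setting are not given in the sources used here. Deposited log2 CPM tables were not used. Of the 60617 identifiers, 60357 matched GENCODE release v44, which gave symbols, positions and lengths. Estimated counts were rounded and filtered with filterByExpr. They were fitted with edgeR 4.0.16 in R 4.3.3 (TMM, robust quasi-likelihood, 1 mean per group over all 9 libraries, common dispersion 0.00977). Adjustment was by Benjamini and Hochberg over the 18532 genes tested, and the threshold on the adjusted p was 0.05. Fold changes are on the fitted log2 scale, and intervals use the quasi-likelihood spread. The procedure was checked on simulated counts in which few genes changed, in 1 group. That check does not cover scaling under changes as widespread as those in these libraries. The authors' methods name voom and limma, which were run as an alternative (limma 3.58.1), as was DESeq2 1.42.0.
The members and lists were chosen with earlier results of these data known. Named pathway genes were the up to 3 largest called changes of the combination against control per list and every gene called between the treatments. Some results on single genes of these lists are not reported here, although the genes count in the totals of their list. Genes of like pattern were the 5 nearest in centred log2 CPM (prior count 2). Pairs of libraries within a group had a chi-square per degree of freedom of 6.4 to 26.1, so none was a copy. The alternatives were other scalings, filters and tools, fits on only 6 libraries, a replicate block, a threshold on the fold change, other gene lengths, and leaving out each library.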

Additional observations from a re-analysis of the deposited data

Results flagged for a closer look

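Between the treatments, 7.67% of all genes tested were higher and 8.02% lower in the combination. None of the 9 enzymes passed this direct test. Of the 39 tested pathway genes, 7 were higher and 5 lower in the combination. Among those given here, the log2 differences of the combination from decitabine, in edgeR's quasi-likelihood test, were 0.47 for GGH, 0.46 for MTHFD2L, 0.45 for GCSH, 0.41 for MTFMT, 0.27 for SFXN1 and 0.22 for PPAT for genes that were higher. For genes that were lower they were -0.68 for SPTLC2, -0.45 for FPGS, -0.40 for MTR and -0.35 for PTDSS2.
GGH, FPGS and SPTLC2 passed the threshold under all 17 alternatives, including without each library. PPAT passed under only 4 of 17 and SFXN1 under 6 of 17. GCSH and PTDSS2 were lost without combination replicate 2 (log2 0.40 and -0.31, adjusted p = 0.051 and 0.057). MTFMT was lost without decitabine replicate 2 or combination replicate 2, with an adjusted p of up to 0.051. MTHFD2L was lost without decitabine replicate 2 (adjusted p = 0.093) or combination replicate 1 (adjusted p = 0.053). MTR was lost without either of decitabine replicates 1 and 2 or combination replicate 1, with an adjusted p of up to 0.082.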

How the results depend on the processing

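All 8 decreases and the increase of ALDH1L2 kept direction and call under every alternative, for both treatments, except that PSPH and SHMT1 missed a log2 threshold of 1, leaving 6 decreases. Of 459 member values under alternatives, 456 kept their side of the threshold. The others were ALDH1L2 between the treatments with no filter (-0.30) and without 1 library (-0.39 to -0.18 over the leave-one-out fits), so that 0 to 1 member was lower there. Over all genes, a log2 threshold of 1 left 4208 up and 1139 down with decitabine, 3962 and 1216 with the combination, and 74 and 323 between the treatments. Library size alone gave 3746 and 3857 decreases against control, and turned SLC25A32 to 0.04, FPGS to 0.07 and GGH to 0.04 with decitabine. Counts between the treatments depended on single libraries. Leaving 1 out gave 381 to 2066 higher and 480 to 1997 lower genes. They were lowest without combination replicate 2 (381 and 480) and decitabine replicate 2 (408 and 596), then combination replicate 1 (591 and 773) and decitabine replicate 1 (846 and 937). Pathway genes higher in the combination numbered 3 to 7, with 3 without decitabine replicate 2 or combination replicate 2 and 4 without combination replicate 1. The causes were not tested.
Control levels per kilobase with the longest transcript were 120.5 for PHGDH, 33.4 for PSPH, 15.9 for SHMT1, 63.0 for MTHFD1, 159 for SHMT2, 43.7 for MTHFD2, 21.1 for MTHFD1L and 0.267 for ALDH1L2. With the MANE Select transcript they were 205, 36.8, 17.3, 136, 251, 64.5, 21.3 and 0.294, in the same order of genes.
The labels do not say that replicate numbers pair the samples, and the main fit had no block. Same-numbered treated and control libraries deviated together with a correlation of only -0.0165 to 0.0694. Between Dec_Sam and Dec the correlations were 0.233, 0.0359 and 0.229 for replicates 1, 2 and 3, so some shared deviation was present there. With the replicate number as a block, 8 members fell and 1 rose with each treatment and 0 differed between the treatments. Over all genes, 1766 were then higher and 1890 lower in the combination, against 1421 and 1487 without the block.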

Other observations

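The controls were not alike for these enzymes. Control replicate 1 was the highest control for 7 of the 9 members, against 36.0% of all genes tested. In 5 of the 8 enzymes that fell, control replicate 1 was at least 1.2 times control replicate 3, with ratios of 1.30 for PHGDH, 1.48 for PSAT1, 1.32 for SHMT2, 1.56 for MTHFD2 and 1.25 for MTHFD1L. Among 5098 genes with a control mean of at least 50 CPM, 395 (7.75%) did so. MTHFD1 was at 0.910 and SHMT1 at 0.987. These limits were chosen after the values were seen. ATF4 was highest in control replicate 1 too, at 519 CPM against 392 CPM in control replicate 3. Without control replicate 1 the log2 fold changes with decitabine stayed past the threshold for all 9 members.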
